A study of Caenorhabditis elegans with 2 samples.

Results

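The clec genes of Caenorhabditis elegans, the family that encodes proteins with a C-type lectin domain, were compared between worms raised on different bacteria. Members were all genes whose current symbol was clec followed by a number, found through the systematic names of the probes, except for clec-52, clec-60, clec-61 and clec-71, which were not analysed here. This gave 239 genes with a probe, out of 19807 named genes with a probe on the array. A gene is called detected on an array where the scanner software marked a probe of it as well above background. A member counted whether it was detected on both arrays, on 1 or on neither.

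A C-type lectin domain is a protein fold that in many of its members binds sugars in the presence of calcium. The nematode family is far larger than the vertebrate one, most of its products are predicted to be secreted or membrane-bound, and many of its genes are expressed in the intestine, the tissue that meets ingested bacteria. Transcripts of clec genes are known to move up or down when the worm feeds on different bacteria, and some members are required for resistance to particular bacteria.

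Whole young adult worms of the laboratory strain N2 had been raised at 20 °C from hatching on 1 of 2 bacteria. The control group received Escherichia coli OP50, the standard laboratory food, and the other group received a soil isolate of Lysinibacillus sphaericus, a Gram-positive, spore-forming species. The study asks how the worm's transcripts differ when this bacterium replaces the control food. RNA of each group was measured on 1 one-colour array, named here by its bacterium, so no difference below has a replicate check, no test was run and the spread between worm populations is unknown.

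Levels are log2 processed signals minus the 75th percentile of all probes on the same array, so that a level of 0 is that percentile. A difference is the level on the L. sphaericus array minus the level on the OP50 array, and a fold is taken from that difference. The 75th percentile was at a signal of 1439.64 on the OP50 array and 3367.91 on the L. sphaericus array. Of 43803 spots, 76.1% were marked well above background with OP50 and 75.5% with L. sphaericus. Probe sequences were not analysed here, so hybridisation shared between near-identical clec genes was not tested. RNA came from whole bodies, where fewer cells of a type and less RNA per cell cannot be told apart.

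A smaller share of clec genes than of all genes gave a measurable signal. Of the 239 members, 137 (57.3%) were detected on both arrays by the same probe, against 77.3% of all named genes. A further 27 members (11.3%) were detected on the L. sphaericus array alone, against 4.08% of all named genes. On the OP50 array alone there were 21 members (8.79%), against 4.21% of all named genes. The remaining 54 members (22.6%, against 14.4% of all genes) stayed below this limit on both arrays. Detection on a single array was therefore more frequent in the family than among all genes, and was seen on either side.

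Among the 137 members measured on both arrays, 66 (48.2%) had at least 2-fold less signal with L. sphaericus and 31 (22.6%) at least 2-fold more, although without any scaling between the arrays 43 were lower and 48 higher. Over all 15301 measured genes, 32.6% were at least 2-fold lower and 22.1% at least 2-fold higher. With this scaling the share of lower members lay above the background and the share of higher members close to it. Without scaling, 31.4% of members were lower against 11.6% of all genes, and 35.0% were higher against 50.6%. Median scaling gave 41.6% lower against 20.8% and 29.2% higher against 37.9%, and ribosomal scaling 38.7% against 17.9% and 30.7% against 41.6%. The share of lower members was above that of all genes in each of these settings, and the share of higher members was below it in all but the first. In the other scalings the share of higher members was above that of all genes. It was 27.0% against 26.0% with quantile normalization, 26.3% against 25.2% with loess and 21.2% against 17.2% with the percentile over detected probes. Lower members were again above all genes, at 42.3% against 25.5%, 42.3% against 24.7% and 52.6% against 37.2%, in the same order. Among those at least 2-fold apart, 32.0% of members and 40.4% of all genes were higher, which became 44.2% and 69.9% when the arrays were scaled on ribosomal protein genes and 52.7% and 81.4% without scaling. The remaining 40 members lay between these limits, and 7 members lay within 0.1 of a limit.

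The differences spread more widely in the clec family than among all genes. The median difference was −0.99, against −0.20 for all measured genes, which gives the family a median of −0.79 relative to all genes. The middle 50% of members ran from −2.43 to 0.80, against −1.40 to 0.88. The SD over members was 2.60, against 1.61 over all genes, and these SDs describe genes, not replicates.

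**Figure D1:**
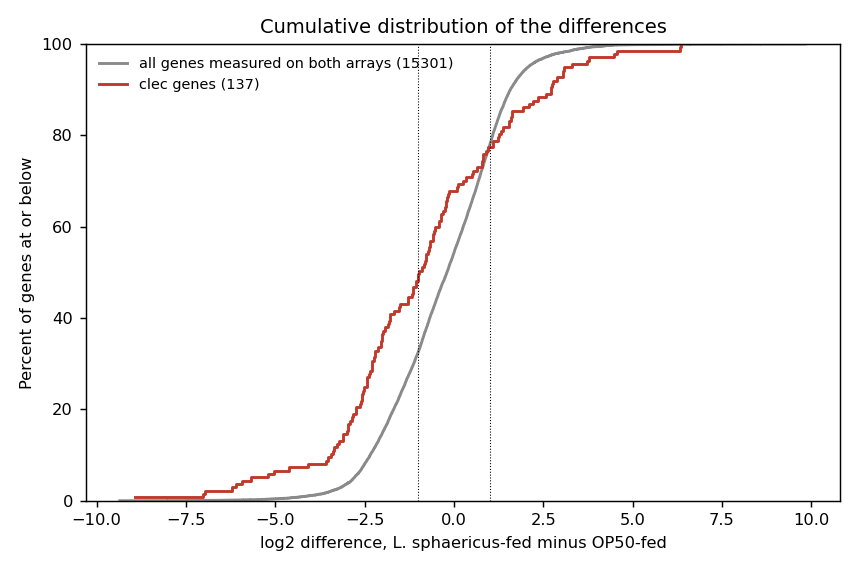
Cumulative percent of genes (vertical axis) at or below each log2 difference, L. sphaericus-fed minus OP50-fed (horizontal axis), for the 137 clec genes and for all 15301 genes measured on both arrays. Dotted lines mark 2-fold. The clec curve lies above that of all genes on the left and below it on the far right, with medians of −0.99 and −0.20.

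Both tails were populated. At least 16-fold lower were 11 members (8.03%), against 1.16% of all measured genes, and at least 16-fold higher were 4 members (2.92%), against 0.569%. At 4-fold the counts were 50 lower and 19 higher, or 36.5% and 13.9%, against 14.9% and 5.59% of all genes. The folds of the lower members ran from 2.07 to 485 with a median of 5.76, and those of the higher members from 2.11 to 80.9 with a median of 5.92. The ordering of levels was also less alike between the arrays for clec genes, with a Spearman coefficient of 0.61 over 137 members against 0.825 over all measured genes. This is a description over genes that share the same 2 hybridisations.

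**Figure D2:**
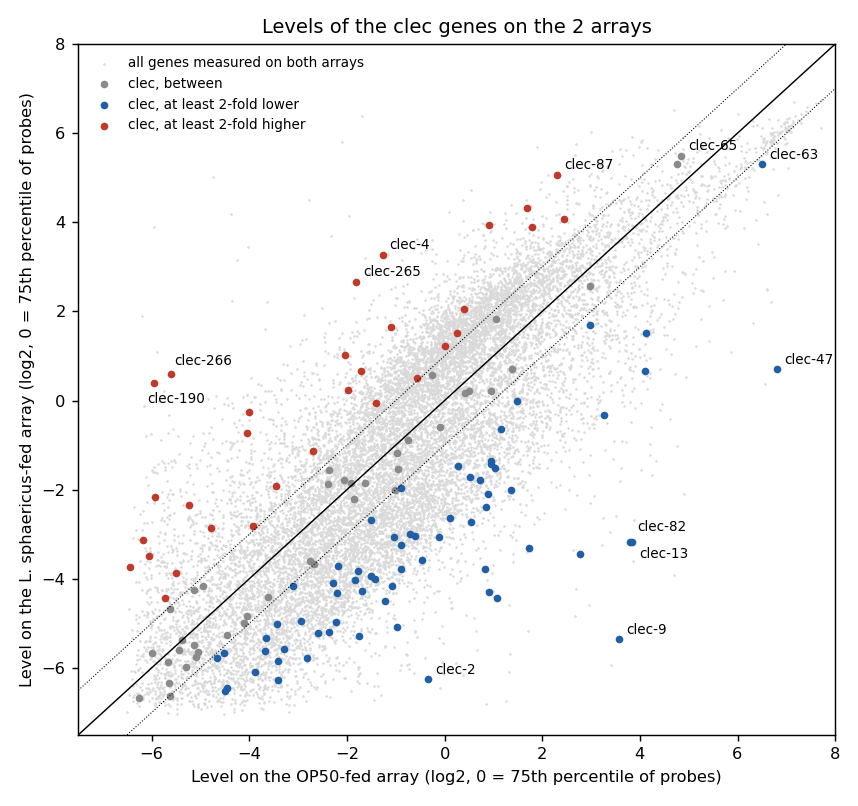
Level of each clec gene with OP50 (horizontal axis) and with L. sphaericus (vertical axis), both in log2 units with 0 at the array's 75th percentile of probes. Grey dots are all measured genes, the solid line marks equal levels and the dotted lines 2-fold. The lowest group on the right, led by clec-9, clec-13 and clec-82, had levels above 3 on the OP50 array and below −3 on the other.

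The largest differences were losses of signal from genes that were bright on the control food. The gene clec-9, on chromosome V, had a processed signal of 17062.5 on the OP50 array and 82.4 on the L. sphaericus array. Its level went from 3.57 to −5.35, a difference of −8.92 or 485-fold. Only 0.01% of all measured genes had a lower difference. On chromosome I, clec-13 had signals of 20604.5 and 372, with levels of 3.84 and −3.18, and was 129.6-fold lower. On chromosome IV, clec-82 had nearly the same pair of levels, 3.80 and −3.17, and was 125-fold lower. All 3 genes were among the brighter members on OP50. On L. sphaericus, clec-13 and clec-82 were close to the members' median level of −3.03 and clec-9 was below it. Each value rests on a single probe.

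The gene clec-76 on chromosome IV followed, with levels of 2.78 and −3.44, and was 74.7-fold lower. The brightest of all members on the OP50 array was clec-47 on chromosome V, with a signal of 161079 against 5485 on the L. sphaericus array. Its levels of 6.81 and 0.70 gave a 68.7-fold lower value, and it still lay above the 75th percentile on the L. sphaericus array. The neighbours clec-2 and clec-3 on chromosome II were 60.8-fold and 51.1-fold lower. For clec-3 this rested on 3 probes, at −5.67 ± 0.26 (SD over probes), with levels of 1.07 and −4.42. For clec-2 the L. sphaericus-fed level of −6.26 was within 2-fold of the lowest level detected on that array, −7.03.

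A further 5 genes completed the 12 lowest members. These were clec-14 (37.1-fold), an annotated pseudogene, clec-172 (32.8-fold), clec-70 (24.4-fold), clec-33 (17.1-fold) and clec-5 (12.01-fold). All but clec-33 had OP50-fed levels above 0, from 0.83 for clec-70 to 3.27 for clec-5, and clec-33 was at −0.97. All of the 12 lowest members stayed at least 2-fold lower in every alternative processing that gave them a value.

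At the other end, the largest differences came from genes that were faint on the control food. The gene clec-190 on chromosome IV had signals of 23.3 on the OP50 array and 4419 on the L. sphaericus array, with levels of −5.95 and 0.39, and was 80.9-fold higher on a single probe. On the X chromosome, clec-266 was at −5.61 and 0.59, and was 79.98-fold higher. Its difference of 6.32 ± 0.16 (SD) was carried by 4 of its 6 probes. Both genes had OP50-fed levels within 2-fold of the lowest level detected there, −6.52, so the size of these folds rests on values near the limit of detection. Over the alternative settings the difference ran from 4.26 to 7.56 for clec-190 and from 4.56 to 7.55 for clec-266.

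A pair of higher genes did not start from that limit. The gene clec-4 on chromosome II, known from work on the worm's defence against Bacillus thuringiensis, went from a signal of 597 to 32633. Its levels were −1.27 and 3.28, a 23.4-fold higher value. On the X chromosome, clec-265 went from 412 to 21348, with levels of −1.80 and 2.66, and was 22.15-fold higher. Each moved from below to well above the 75th percentile, on a single probe.

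The next higher members were clec-94 (13.6-fold), clec-196 (13.3-fold), clec-197 (9.95-fold), clec-222 (8.37-fold), clec-78 (8.25-fold), clec-91 (8.24-fold), clec-208 (7.42-fold) and clec-87 (6.86-fold). Of these, clec-94 and clec-78 had OP50-fed levels of −5.93 and −6.18, near the limit of detection. The gene clec-87 was measured on 6 probes and was bright on both arrays, with signals of 7138 and 112653 and levels of 2.31 and 5.06. Its difference was 2.78 ± 0.32 (SD). All of the 12 highest members stayed at least 2-fold higher in every alternative that gave them a value.

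**Figure D3:**
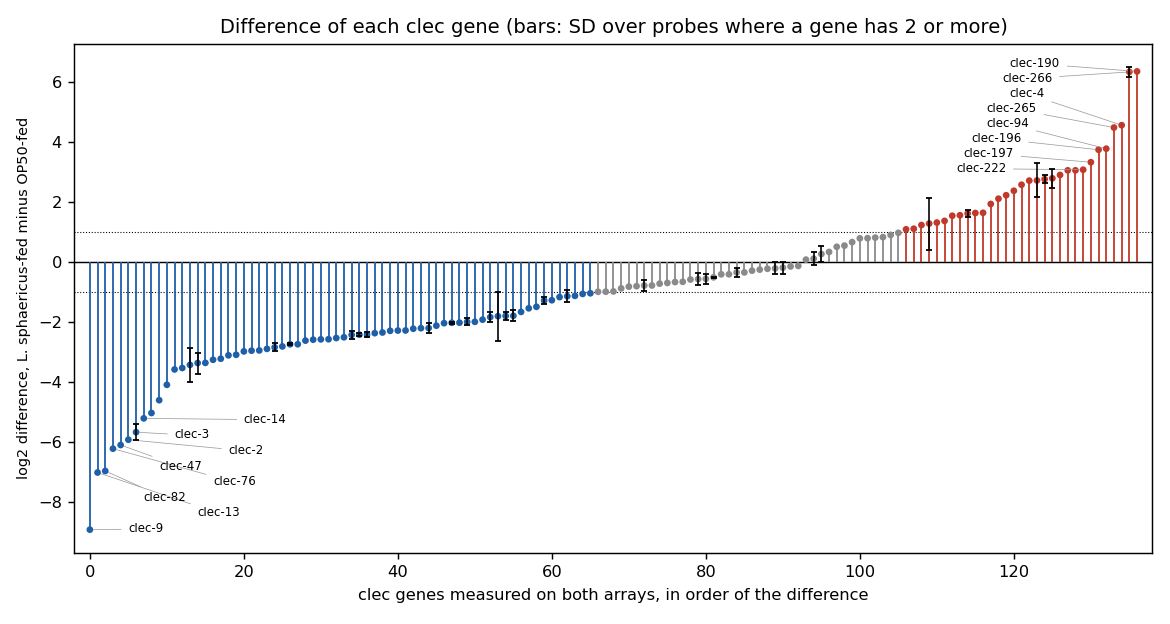
Log2 difference of each of the 137 clec genes measured on both arrays (vertical axis), in order of the difference (horizontal axis). Bars are the SD over probes of a gene with 2 or more measured probes, colours mark members at least 2-fold lower (blue) or higher (red), and dotted lines mark 2-fold. The lower side is the longer one, with 66 genes against 31 (43 against 48 without scaling), and reaches −8.92 against 6.34.

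Different probes of a gene gave similar values for most members. Of the 137 members, 105 had 1 measured probe, 14 had 2 and 18 had 3 or more. The median SD between probes was 0.17, against 0.18 over all genes with 2 or more probes, and the median SD over repeated spots of a probe was 0.10. Among the 23 members at least 2-fold apart with several probes, 22 had every probe at least 2-fold apart the same way. The exception was clec-41, whose 3 probes ran from −0.13 to 1.45. These errors are technical and leave out the spread between worm populations.

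The members with 3 or more probes give the best measured values. The gene clec-63 on chromosome II had 9 probes, with levels of 6.51 and 5.30, and was at −1.29 ± 0.13 (SD). It lay near the top of the range on both arrays, and without scaling its difference was −0.06. The gene clec-8 had 6 probes at −1.80 ± 0.19 (SD), clec-75 had 4 at −3.37 ± 0.35 and clec-79 had 3 at −2.85 ± 0.14. With 3 probes each, clec-24 was at −2.43 ± 0.09, clec-153 at −2.43 ± 0.13, clec-175 at −1.84 ± 0.16 and clec-51 at −1.80 ± 0.13. Over the alternatives clec-8 reached −0.57, clec-51 −0.58 and clec-175 −0.62, all less than 2-fold. In contrast, clec-75, clec-79, clec-24 and clec-153 stayed at least 2-fold lower. On the higher side, clec-88 had 4 probes at 2.71 ± 0.57, with levels of 1.68 and 4.33, and clec-97 had 3 probes at 1.61 ± 0.10. Several well-covered members differed little. The genes clec-90 and clec-230, with 6 probes each, were at 0.10 ± 0.21 and −0.22 ± 0.20, clec-170 with 4 was at −0.35 ± 0.14, and clec-181 with 3 was at −0.57 ± 0.16.

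The brightest members did not share a direction. Besides clec-63 and clec-87, the 10 brightest by the mean of both arrays held clec-65, with levels of 4.84 and 5.49, and clec-50, with levels of 4.76 and 5.30, both less than 2-fold apart. At least 2-fold higher were clec-1 (2.44 and 4.07), clec-150 (1.80 and 3.90) and clec-88. The gene clec-146 was 6.04-fold lower (4.12 and 1.52), as was clec-47 by the larger fold given above. The gene clec-62 was at 2.99 and 2.57, a difference of −0.42. Measured members closest to a difference of 0 were clec-178 (0.07), clec-90 (0.10), clec-204 (−0.14) and clec-165 (−0.16).

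Split by brightness over all measured genes into 3 equal parts, the excess of lower members lay in the middle and the bright part. In the middle part 25 of 44 members (56.8%) were at least 2-fold lower, against 34.7% of all genes there. In the bright part 10 of 29 (34.5%) were lower and 11 (37.9%) higher, against 17.9% and 31.5% of all genes. In the dim part 31 of 64 (48.4%) were lower, against 45.1%, and 13 (20.3%) higher, against 13.5%. The share of lower genes among all genes itself fell with brightness. Above the 75th percentile stood 43 members on the OP50 array and 31 on the L. sphaericus array, with 21 in common. Of the 66 lower members, 27 lay above it on OP50 and 5 on L. sphaericus. Of the 31 higher members, 8 lay above it on OP50 and 17 on L. sphaericus.

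Members that crossed the limit of detection have a bound in place of a fold. The level on the bright array was set against the level of the dim probe. Where that was lower than the limit of detection of the dim array, the limit was used. This limit was taken as the lowest level of any detected probe. It is not sharp, as some undetected probes lay above it. On the OP50 array clec-29 was undetected at −6.12, above the lowest detected level of −6.52. On the L. sphaericus array clec-258 was undetected at −6.47, above −7.03. The bounds are therefore approximate. On the L. sphaericus array alone, the largest bound was that of clec-219, at least 32.1-fold higher, with a signal of 1176. It was followed by clec-137, at least 24.5-fold, clec-134, at least 20.6-fold, and clec-96, at least 16.6-fold higher. The genes clec-99 and clec-207 were at least 11.5-fold and 10.8-fold higher. Of the 27 members, 25 had such a bound and 19 reached 2-fold, while for clec-182 and clec-74 no fold could be given.

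On the OP50 array alone, the bounds were smaller. The annotated pseudogene clec-77 was at least 13.4-fold lower, with an OP50-fed signal of 147. The gene clec-140 was at least 11.1-fold lower and clec-39, which is known to be required for resistance to Serratia marcescens, at least 8.69-fold lower, with signals of 122 and 95.7. The gene clec-163, with 3 probes, was at least 8.24-fold lower. For clec-234, at least 8.17-fold lower, 1 of its 7 probes was detected, and for the pseudogene clec-155, at least 7.57-fold lower, 1 of 2. All 21 members on this side had bounds of 2-fold or more, but 12 did when the arrays were scaled on the median of probes and 8 without scaling. On the other side these counts were 24 and 26.

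**Figure D4:**
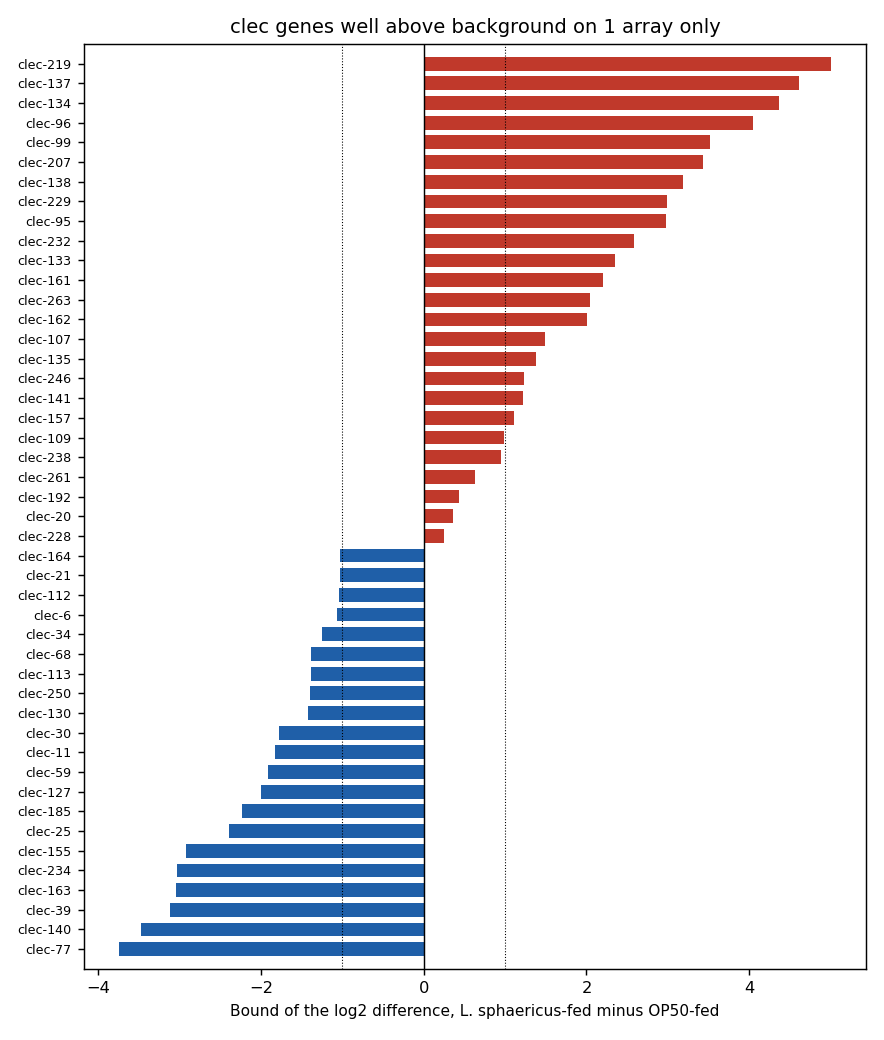
Bound of the log2 difference, L. sphaericus-fed minus OP50-fed (horizontal axis), for each of the 46 clec genes (vertical axis) with a bound, those seen on the L. sphaericus array alone in red and those seen on the OP50 array alone in blue. Bars start at 0 and dotted lines mark 2-fold. The longest bars, those of clec-219 and clec-77, stand for at least 32.1-fold higher and 13.4-fold lower.

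Among the 18 annotated pseudogenes with a probe, 8 were measured on both arrays, of which 6 were at least 2-fold lower and 1, clec-69, at least 2-fold higher (1.08), against 32.6% and 22.1% of all genes. Of the 6, clec-154 and clec-201 were near the limit of detection and at −0.77 and −0.80 without scaling.

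Lectin genes named in work on bacterial infection of the worm were spread over both directions. The list of 17 genes was drawn up with earlier results of these data known. Of these, 16 had a probe and 14 were measured, with 4 at least 2-fold higher, 5 lower and 5 between, while scaling on the median of probes, scaling on ribosomal protein genes and no scaling each gave 8 higher and 4 lower, and quantile normalization 7 and 5. Of all genes, 37.9%, 41.6%, 50.6% and 26.0% were at least 2-fold higher in these 4 settings, in the same order. The matching shares on the lower side were 20.8%, 17.9%, 11.6% and 25.5%. For the main setting, the background was 22.1% on the higher side and 32.6% on the lower side. The median difference of the 14 measured genes was 0.52, or 0.71 relative to all genes, against −0.79 for the whole family. The medians describe the genes listed and carry no test.

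Higher on L. sphaericus were clec-4, clec-66, clec-41 and clec-67. The gene clec-66 was measured on 2 probes at 2.75 ± 0.13 (SD), with levels of −1.10 and 1.65. The gene clec-67, a known reporter of the p38 MAP kinase pathway of immunity, had levels of 0.00 and 1.22. For clec-41, which like clec-4 is known from work on defence against B. thuringiensis, the levels were 0.25 and 1.52. Its probes disagreed as stated above. With the mean over probes in place of the median, clec-41 was no longer 2-fold apart.

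Lower were clec-82 and clec-70, given above, with clec-7, clec-86 and clec-49. The gene clec-7 had levels of 1.36 and −2.01 and was 10.3-fold lower, and clec-86 had levels of 0.88 and −2.10 and was 7.91-fold lower. The gene clec-49, known like clec-39 from resistance to S. marcescens, had levels of 1.48 and −0.02 and was 2.83-fold lower. Between were clec-17 (−0.68), clec-43 (0.50), clec-50 (0.54), clec-65 (0.65) and clec-42 (0.78), the last also known from defence against B. thuringiensis. Over the alternatives clec-42 ran from −0.18 to 2.01, and clec-49 was at −0.27 without scaling. The gene clec-186 was not detected on either array, and clec-85 had no named probe here.

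Genes of the clec family often lie next to each other in the genome. A run was taken as neighbouring protein-coding clec genes with at most 1 other gene between them, in the order of the WBcel235 gene table. Of the measured members, 76 lay in runs, with 39 lower and 17 higher, and 61 outside, with 27 lower and 14 higher. These shares, 51.3% and 22.4% in runs and 44.3% and 23.0% outside, were close to each other. In 6 runs at least 3 members could be compared. Of these runs, 4 held lower members only among those at least 2-fold apart, 2 held both directions and 0 held higher members only, but with median scaling these counts were 3, 2 and 1, and without scaling 1, 4 and 1.

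The longest such run, on chromosome V, was lower almost throughout. It holds 13 genes in the order clec-40, clec-25, clec-36, clec-26, clec-37, clec-35, clec-27, clec-31, clec-22, clec-32, clec-24, clec-28 and clec-33. Of 12 measured members, 11 were at least 2-fold lower, with a run median of −2.43. The values ran from −4.10 for clec-33 over −3.12 for clec-37 and −2.90 for clec-31 to −1.81 ± 0.82 for clec-35, the last on 2 probes that disagreed. The exception was clec-22 at −0.20, whose levels of −5.66 and −5.86 were near the limit of detection. The gene clec-25 was detected on the OP50 array alone, at least 5.26-fold lower. All 11 lower members stayed below 0 in every alternative, and 7 stayed at least 2-fold lower. Which of these probes may take up RNA of a neighbouring copy was not tested.

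A run of 10 genes on chromosome IV was mixed. Of its 8 measured members, 6 were lower: clec-76 and clec-70, given above, with clec-75, clec-79, clec-73 (−2.51) and clec-174 (−1.18), while without scaling clec-174 was at 0.05. The gene clec-67 (1.22), at the start of the run, and clec-72 (1.36), which lies between clec-174 and clec-73, were higher. The gene clec-68, next to clec-67, was detected on the OP50 array alone and clec-74 on the L. sphaericus array alone.

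**Figure D5:**
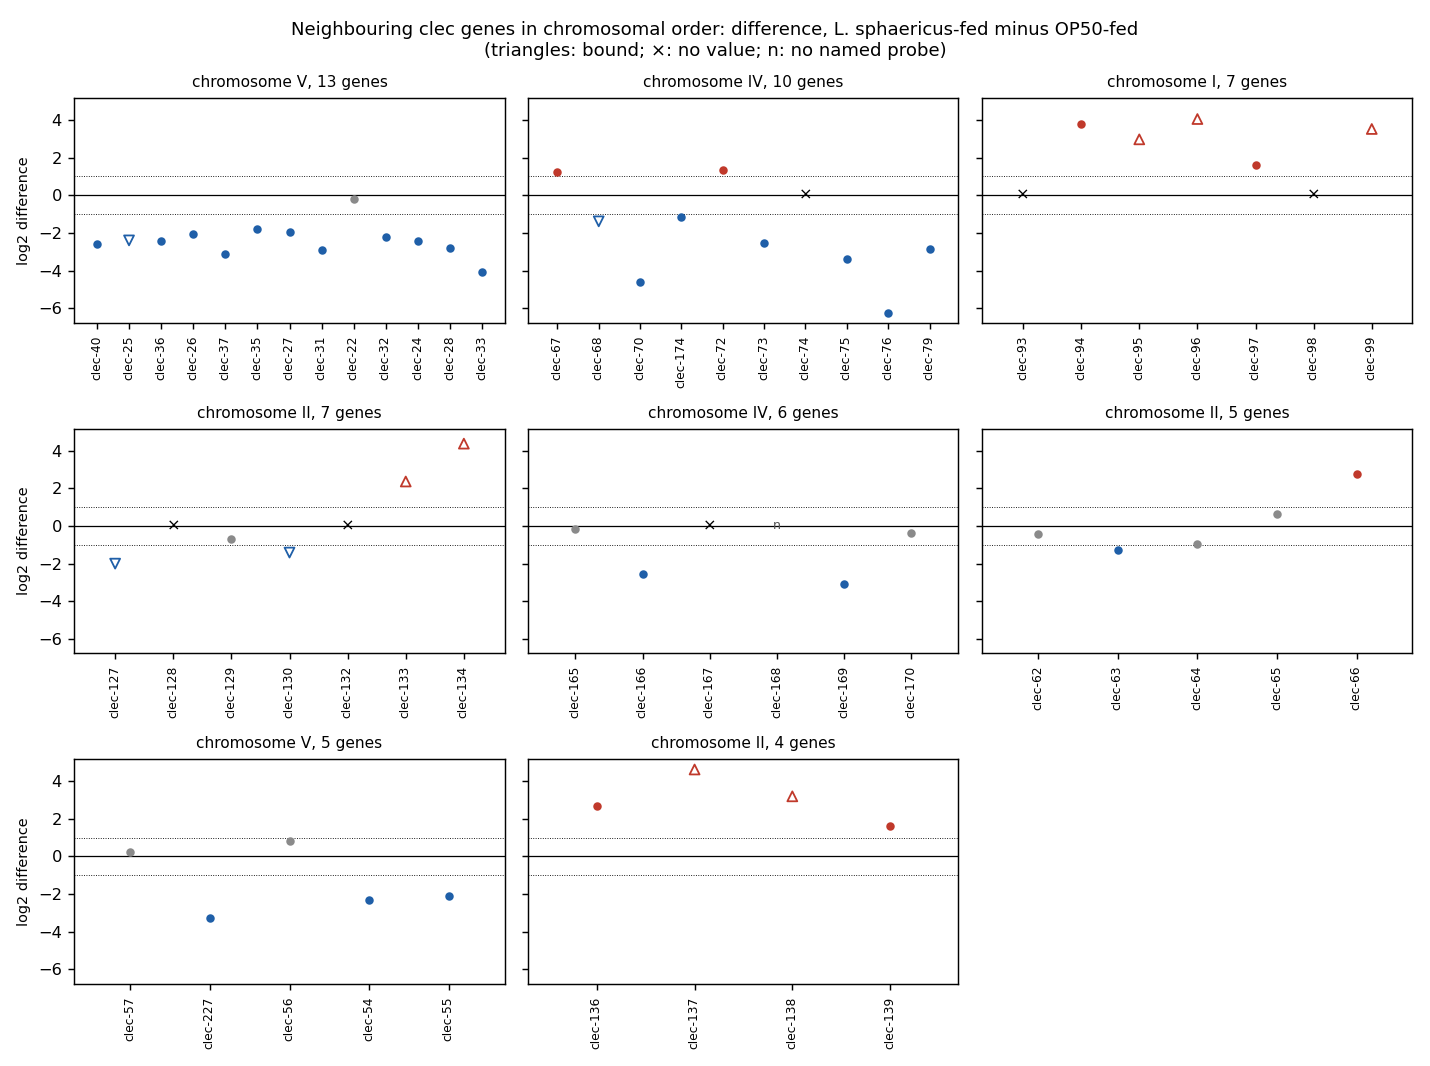
Log2 difference (vertical axis) of the clec genes of 8 runs, in gene order along the chromosome (horizontal axis). Dots are values, triangles bounds of genes seen on 1 array alone, crosses genes with no value, n a gene with no named probe, and dotted lines mark 2-fold. In the chromosome V run of 13 genes, 11 of 12 measured members lie below −1, while the chromosome IV run of 10 holds values from −6.22 to 1.36.

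The other runs were smaller. On chromosome IV, clec-82, clec-83 (−1.28) and clec-84 (−2.38) were all lower. Also on chromosome IV, clec-166 (−2.54) and clec-169 (−3.10) were lower, and their run mates clec-165 and clec-170 were between. On chromosome V, clec-227 (−3.26), clec-54 (−2.29) and clec-55 (−2.13) were lower, beside clec-56 (0.82) and clec-57 (0.26). On chromosome II the run of clec-62 to clec-66 held 1 lower member (clec-63), 1 higher (clec-66) and 3 between, with clec-64 at −0.99 just inside the limit.

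In 37 further runs fewer than 3 members could be compared. Counting detection on a single array with the values at least 2-fold apart, 11 of these runs held members on the higher side only, 10 on the lower side only, 6 on both and 10 on neither. The 5 such runs with at least 4 probed genes, chosen after their values were seen, also differed. In the chromosome I run of clec-93 to clec-99, clec-94 and clec-97 were higher, clec-95, clec-96 and clec-99 were detected on the L. sphaericus array alone, and clec-93 and clec-98 on neither. In the chromosome II run of clec-136 to clec-139, clec-136 (2.70) and clec-139 (1.62) were higher, and clec-137 and clec-138 were seen on the L. sphaericus array alone. The OP50-fed level of clec-136, −6.44, was near the limit of detection. Over the alternatives the lowest differences were 0.52 for clec-136 and 0.38 for clec-139, both less than 2-fold. In the chromosome II run of clec-127 to clec-134, clec-127 and clec-130 were seen on the OP50 array alone and clec-133 and clec-134 on the L. sphaericus array alone. In the chromosome V run of clec-38, clec-34, clec-29 and clec-39, clec-34 and clec-39 were seen on the OP50 array alone and the others on neither. The chromosome IV run of clec-197 to clec-202 held 1 higher and 1 lower member. Thus, in the main setting, 2 of these 5 runs lay on the higher side, 1 on the lower side and 2 on both.

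Neighbours could also lie far apart. The adjacent genes clec-8 and clec-4 on chromosome II were at −1.80 and 4.55. Likewise clec-145 and clec-146 were at 1.55 and −2.59, and clec-197 and clec-198 at 3.32 and −2.58. Over 41 pairs of neighbouring measured clec genes, 25 had both genes at least 2-fold apart, and in 19 of these (76%) they went the same way. This share leans on the chromosome V run of 13 genes, where 11 of 12 measured members were lower. Neighbours within it make up many of the 19 pairs, and the share without this run is not given here. Over 13643 neighbouring pairs of measured genes of any family, 4165 had both genes at least 2-fold apart and 69.2% of these went the same way. The median gap within a pair was 1.30 for clec genes and 1.14 for all genes.

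The split by chromosome followed that of all genes in part. On chromosome V, 27 of 46 members (58.7%) were lower, against 42.1% of all genes there, and 6 (13.04%) were higher, against 18.2%. The run of 13 genes given above held 11 of these 27 lower members. On chromosome I, 7 of 17 members (41.2%) were higher and 4 (23.5%) lower, against 27.9% and 26.6%. The median was −2.04 on chromosome V, −1.50 on III, −1.12 on IV, −0.71 on II and −0.35 on I, in each case below the median of all genes of that chromosome. Of the 3 measured members on X, clec-265 and clec-266 were higher and clec-86 was lower.

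The galectins, another lectin family of the worm, which bind galactose-containing sugars, lay closer to the median of all genes in the main setting. All 12 genes, lec-1 to lec-12, were measured. Of these, 1 was at least 2-fold higher, lec-6 (1.14 ± 0.05, SD over 5 probes), and 4 were lower, namely lec-2 (−2.91 ± 0.21), lec-7 (−2.33 ± 0.08), lec-11 (−1.79 ± 0.12) and lec-5 (−1.12), but without scaling 5 were higher and 2 lower, with ribosomal scaling 4 and 2, and with median scaling 3 and 3. Of all genes, 22.1% were higher and 32.6% lower in the main setting. In these 3 alternatives, in the same order, 50.6%, 41.6% and 37.9% of all genes were higher and 11.6%, 17.9% and 20.8% lower. The galectin median of −0.34 was −0.15 relative to all genes, and the widest value, that of lec-2, was 7.52-fold. Relative to all genes, the galectin and clec medians were −0.37 and −0.56 with quantile normalization and −0.43 and −0.58 with loess. On genes with 2 or more measured probes the galectins lay further off than the clec genes, at −1.56 over 5 genes against −0.99.

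Genes known to regulate clec and other immune genes in the intestine were also read. Of 17 listed regulators, all measured, 0 were at least 2-fold higher and 10 lower, but with median scaling 3 were lower, and without scaling 3 were higher and 1 lower. In the main setting 22.1% of all genes were higher and 32.6% lower. With median scaling 20.8% of all genes were lower, and without scaling 50.6% were higher and 11.6% lower. The share of lower regulators was thus below that of all genes with median scaling and without scaling. The same held with ribosomal scaling, with 2 lower against 17.9% of all genes. It was above that of all genes in the main setting and in the other scalings. With quantile normalization and with loess 9 were lower, against 25.5% and 24.7% of all genes. The percentile over detected probes gave 11 lower, against 37.2%. The median of the regulators was −1.08, or −0.89 relative to all genes. In the p38 MAP kinase pathway, the adaptor tir-1 (−1.20 ± 0.36, SD over 13 probes), the kinases nsy-1 (−1.20) and sek-1 (−1.08) and the phosphatase vhp-1 (−1.07) lay just past 2-fold. The p38 kinase pmk-1 was at −0.10 ± 0.12 and its target, the transcription factor atf-7, at −0.66. Among other transcription factors, pqm-1 was at −2.85, the TFEB homologue hlh-30 at −1.84 ± 0.24, the intestinal GATA factors elt-7 and elt-2 at −1.51 and −0.54, zip-2 at −1.30 and the FOXO factor daf-16 at −0.97. The BMP-like ligand dbl-1 was at −1.79 ± 0.04 and its SMAD sma-3 at 0.05. The array measures transcripts of these regulators, not their activity.

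Markers of some tissues also differed between the arrays. As background to the marker counts below, 22.1% of measured genes lay past 2-fold upward and 32.6% downward in the main setting. All 5 oocyte markers were at least 2-fold higher (summed level, in multiples of the 75th percentile, 22.4 on OP50 and 109.2 on L. sphaericus), as were 3 of 4 germline markers. All 5 sperm markers were lower (3.95 and 0.743), but with ribosomal scaling and without scaling 2 of them were. The share of all genes that were lower was 17.9% and 11.6% in these settings. Of 6 male markers, 3 were measured and all were lower, cwp-3 was seen on the OP50 array alone, pkd-2 on the L. sphaericus array alone and lov-1 on neither. Intestinal markers lay close to all genes, with a median relative to all genes of −0.02 and summed levels of 198 and 133. Of these 8 markers 1 was higher and 2 were lower, but without scaling 5 were higher and 0 lower. Without scaling 50.6% of all genes were higher and 11.6% lower. Of the markers of pharynx, body wall muscle, neurons and epidermis, 2 of 4, 0 of 4, 2 of 5 and 0 of 4 were lower and 0, 0, 1 and 2 higher, while without scaling pharynx had 0 lower and 1 higher, and with the percentile taken over detected probes all 4 muscle markers were lower. In that last setting 37.2% of all genes were lower. The part of these tissue and stage markers in the clec differences was not tested.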

How the data were processed

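Cy3-labelled cRNA from total RNA of whole worms was hybridised to 1 one-colour Agilent array per diet, and groups follow the sample titles. The authors deposited the scanner's linear intensity per spot and its flags, read and background-subtracted by Agilent Feature Extraction 11.0.1.1, per the file headers. Both arrays share 1 slide and 1 scan. A deposited series table repeats the linear processed intensity, neither scaled nor centred: 43559 and 43562 of 43579 matched probes lay within 0.01 log2 units, with the OP50 array first. Other deposited marks, such as flags and outlier calls, are not levels.

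Control spots and 36 outlier spots were left out, and no spot was saturated. The log2 processed signal, averaged over repeated spots, was scaled on each array's 75th percentile over 43579 probes, with Python 3.11.15, numpy 2.4.6 and pandas 2.3.3. A gene's difference is the median over its probes that the scanner marked well above background on both arrays, 31044 in all. Systematic names found a WBcel235 RefSeq gene for 34298 probes. Besides the 4 genes left out by the rule, the gene table holds 260 clec genes, of which 21 had no named probe here. Since the design of the array rests on an earlier genome build, coordinates are left out, and promoter, protein and probe sequences were not analysed here. The steps were tested on simulated data.

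Members and lists were chosen with earlier results of these data known. Genes named in the text are the 12 members furthest in each direction whose probes share a sign, the 6 largest bounds each way, the 10 brightest members, the 4 closest to 0, members with 3 or more measured probes, a list of bacterial response lectins and members of runs with 3 or more compared. Any other name was chosen after its values were seen. Alternatives were other scalings, loess (statsmodels 0.14.6, span 0.3) and quantile normalization, filters on dim probes, other rules for several probes, thresholds of 1.5-fold and 3-fold and, added after seeing the data, normexp (limma 3.58.1 in R 4.3.3, offset 50) on median signals, since the mean signals it was planned for are not in the files used here. The number of arrays limits the precision.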

Additional observations from a re-analysis of the deposited data

How the results depend on the processing

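With 1 array per diet, no result could be set against the spread between replicates, and the values below show only how far the processing moves them. No paired analysis was possible because there is 1 array per diet and no test. The main counts, 66 members lower and 31 higher, stayed within 1.5 times under every scaling except none, where they were 43 and 48. Scaling shifts all genes together, and the median of all measured genes moved by 0.64 with median scaling, 0.81 with ribosomal scaling, 0.29 with quantile normalization, 0.30 with loess, 1.23 without scaling and −0.20 with the percentile over detected probes. The family median relative to all genes was −0.79, and −0.56 with quantile normalization, −0.58 with loess and −0.69 with normexp. Without a filter on dim probes, 57 of 239 members were higher and 96 lower, with a relative median of −0.14. These were 23.8% and 40.2% of members, against 20.5% and 33.2% of all genes. Where only the brighter probes were kept, from the median signal upward, 43 of 86 members were lower, and the relative median was −1.09. Chosen after seeing the data, a limit of 2-fold above the lowest level well above background left 122 members, with 25 higher, 62 lower and a relative median of −0.90. Genes with 2 or more measured probes, also chosen after seeing the data, left 32 members, of which 6 were higher and 17 lower, with a relative median of −0.99. Among all genes with 2 or more measured probes, 19.2% were higher and 30.9% lower, against 18.8% and 53.1% of members. The lower numbers of members there come from the fewer genes kept.

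Over all alternatives that gave a value, 22 higher and 43 lower members stayed past 2-fold. The share of all genes that did so is not given here, so these counts have no background beside them. The sign turned in at least 1 alternative for the higher member clec-183 and for the lower members clec-106, clec-108, clec-144, clec-173 and clec-174. Among named members at least 2-fold apart this concerned clec-174 alone, at −1.18 and, without scaling, at 0.0496. Signal over background limits the 18 members with a level within 2-fold of the lowest level well above background on an array, 7 of them higher and 5 lower. Near them the folds rest on few units of signal, as for clec-190, clec-266, clec-94 and clec-78. Motif and protein searches planned for the members and normexp on mean signals were not run.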
